A study of Mus musculus with 2 samples.

Results

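The complement components described here were 9 genes of the classical and alternative pathways, namely C1qa, C1qb, C1qc, C1ra, C2, C3, C4b, Cfb and Cfp. Their members on the array were all probe sets that the platform's annotation assigned to 1 of these genes alone. A probe set is a set of oligonucleotides designed against 1 transcript and summarised as 1 signal. This rule took 12 of the 45101 probe sets and covered 7 of the 9 genes. C1qb and C2 had 3 probe sets each, Cfp had 2, and C1qa, C1qc, C1ra and Cfb had 1 each. C3 had no probe set listed under its name, and the 1 probe set listed for C4b was assigned to C4a as well, so neither of these genes has a value of its own here.

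Complement is a chain of plasma proteins that mark surfaces, draw in leukocytes and lyse membranes. In the classical pathway C1q, built from A, B and C chains, binds immune complexes or damaged surfaces and activates the proteases C1r and C1s, which cleave C4 and C2. In the alternative pathway factor B (Cfb) binds deposited C3b and supplies the protease of its convertase, which properdin (Cfp) stabilises. The liver makes most plasma complement, whereas C1q comes largely from macrophages and dendritic cells and properdin largely from leukocytes.

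The tissue was the lining membrane of an air pouch, a cavity raised under the skin of the back of female Balb/C mice of 6 to 8 weeks with 2 ml air and used after 7 days as a stand-in for synovium. The MSU pool held membrane RNA of 3 mice given 2 mg monosodium urate (MSU) crystals, the crystals of gout, in 1 ml PBS, and the control pool that of 3 mice given 1 ml PBS alone, all dissected 9 h after injection. Each pool was hybridized to 1 array, so every value below is a single signal, there is no replicate error and no test between the conditions was possible. A size of 2-fold was used as a fixed limit for counts.

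The signals were linear intensities scaled by the authors to the same trimmed mean on both arrays. A detection floor was placed at a signal of 74.1 on the MSU array and 64.6 on the control array, and a ratio is called a fold where both signals reached it. All 12 member probe sets had a fold. The hybridization spike-ins, bacterial and phage transcripts added in fixed amounts, were brighter on the MSU array for 18 of 18 probe sets. Scaling on them would lower every log2 ratio by 0.46. Over the 10045 genes with a fold, the median log2 ratio of MSU over control was -0.05, and -0.51 after that scaling. Of all genes at least 2-fold higher or lower, 46.4% were higher, and 10.1% after that scaling. Fibroblast markers were measured for 10 of 10 genes and macrophage markers for 9 of 11, whereas 0 of 5 T cell, 1 of 4 B cell and 1 of 8 hepatocyte markers were. Albumin (Alb), the defining hepatocyte transcript, was below the floor in both pools with signals of 2.24 in MSU and 32.3 in control membranes.

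The signals of the complement genes were higher in the MSU pool for factor B and lower for the 3 chains of C1q. Of the 7 genes, each taken at its brightest probe set by mean log2 signal over both arrays, 1 (Cfb) was at least 2-fold higher and 0 were at least 2-fold lower. Among all 11155 genes measured, 3.7% passed 2-fold upward and 4.29% downward, so that a count of 1 in 7 rests on Cfb alone. Counted by probe set, 1 of 12 passed 2-fold upward and 0 downward, against 3.97% and 3.59% of the 18708 measured probe sets with a single gene. The median log2 ratio of the 7 genes was 0.07 and their range ran from -0.52 to 1.20.

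The recognition molecule of the classical pathway was lower in the MSU pool on each of its probe sets. C1qa, the A chain, had a signal of 4725 in MSU membranes and 6685 in control membranes on probe set 1417381_at, which is 1.41-fold lower (log2 ratio -0.50). C1qc, the C chain, had 2884 in MSU and 4128 in control membranes on 1449401_at and was 1.43-fold lower (log2 ratio -0.52). The A and C chains thus differed from each other by less than the spread between probe sets of 1 gene, which had a median SD of 0.22 on the log2 scale over 4002 genes. That spread is between probe sets on the same arrays and holds no variation between mice.

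C1qb, the B chain, was read by 3 probe sets that differed in size but not in direction. The brightest, 1437726_x_at, had 2407 in MSU and 3330 in control membranes and was 1.38-fold lower. On 1417063_at the signals were 1508 in MSU and 2631 in control membranes, a fold of 1.74 lower. On 1434366_x_at they were 1371 in MSU and 1812 in control membranes, a fold of 1.32 lower. The SD of the 3 log2 ratios was 0.21, close to the median of all genes. Names ending in _x_at mark probe sets whose oligonucleotides can also bind other transcripts, and the probe set without that ending had the lowest MSU signal relative to control, at 57.3%.

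Across the 5 C1q probe sets the MSU signal was 57.3% to 75.7% of the control signal, and 0 of 5 reached 2-fold. Ratios like those at the brightest probe set of each gene were common on these arrays. Of the genes with a fold, 17.6% had a log2 ratio at or below that of C1qa, 19.1% at or below that of C1qb and 16.7% at or below that of C1qc. No such share was taken for the C1qb probe set at 57.3%. Among 874 genes with both signals at 1000 or more, a limit chosen after the values were seen, 11.1% were at or below C1qb, the least lowered of the 3. The 3 genes lie next to each other on 1 chromosome with 0 genes between neighbours in the RefSeq table.

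Macrophages are a main source of C1q, and their other markers did not move one way. Of the 9 macrophage markers with a fold, 5 had a log2 ratio above 0 and 4 below, from -1.03 to 0.96, with a median of 0.19; with spike-in scaling 2 were above 0 and 7 below. Csf1r, the receptor for macrophage growth factor, had 6120 in MSU and 5349 in control membranes. The log2 ratios of its 3 probe sets ran from -0.13 to 0.19, and the brightest was counted above 0. The mannose receptor Mrc1 had 6420 in MSU and 3609 in control membranes. The haemoglobin scavenger receptor Cd163 had 2467 in MSU and 1270 in control membranes. In contrast, the 4 markers below 0, singled out after their values were seen, were the folate receptor Folr2 at -1.03, the lysosomal protein Cd68 at -0.78, the F4/80 antigen Adgre1 at -0.12 and Aif1, with signals of 98.9 in MSU and 198 in control membranes. Of the 9, 0 were at least 2-fold higher and 1 (Folr2) at least 2-fold lower. The summed signal of the 11 named markers was 19838 in MSU and 16581 in control membranes, with none at 0 and Timd4 and Cx3cr1 below the floor in both pools. In whole membranes, fewer cells of a type and less RNA per cell cannot be told apart, and the part of macrophage number in the C1q ratios was not tested.

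The start regions of C1qb and C1qc are shown because these neighbouring genes had nearly the same ratio at their brightest probe sets. Another C1qb probe set was at a log2 ratio of -0.80. They stand beside the start regions of C1ra and Cfp, whose log2 ratios were above 0 without spike-in scaling. RefSeq sequences (GRCm38.p6) were given for 4 of the 7 measured genes. Each line holds the 250 bases before the transcription start, 5′ to 3′ on the strand of the gene. Capitals mark a match to GAGGAA, the core of sites bound by the myeloid factor PU.1, or to its reverse complement.
C1qb, chr4:136886201-136886450, minus strand: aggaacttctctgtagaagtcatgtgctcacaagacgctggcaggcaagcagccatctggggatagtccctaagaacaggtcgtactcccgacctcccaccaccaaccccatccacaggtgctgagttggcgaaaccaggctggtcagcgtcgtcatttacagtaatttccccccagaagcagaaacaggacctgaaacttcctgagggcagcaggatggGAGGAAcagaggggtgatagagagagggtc
C1qc, chr4:136892915-136893164, minus strand: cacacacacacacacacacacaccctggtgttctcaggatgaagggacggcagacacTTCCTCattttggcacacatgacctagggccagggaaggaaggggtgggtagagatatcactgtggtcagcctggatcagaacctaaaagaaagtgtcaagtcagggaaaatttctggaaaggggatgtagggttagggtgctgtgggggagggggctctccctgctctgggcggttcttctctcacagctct
C1ra, chr6:124512371-124512620, plus strand: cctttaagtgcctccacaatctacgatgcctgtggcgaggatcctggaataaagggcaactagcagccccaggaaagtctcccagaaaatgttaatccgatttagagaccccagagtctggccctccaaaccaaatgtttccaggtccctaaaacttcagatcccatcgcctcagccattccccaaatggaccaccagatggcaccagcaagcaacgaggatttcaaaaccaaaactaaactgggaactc
Cfp, chrX:20931556-20931805, minus strand: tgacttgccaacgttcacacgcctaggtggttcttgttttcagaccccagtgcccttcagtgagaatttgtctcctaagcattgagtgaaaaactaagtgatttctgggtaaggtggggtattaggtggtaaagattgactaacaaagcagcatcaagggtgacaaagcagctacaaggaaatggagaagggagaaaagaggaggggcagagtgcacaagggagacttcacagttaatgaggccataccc

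In C1qb the match begins 30 bases before the start on the strand of the gene, and in C1qc 193 bases before it on the other strand. The same letters occur on either strand in 23.3% of the 32851 promoters of this length in the table, and in 0 of the other 2 sequences shown. So few sequences allow no comparison with that share. The motifs TTCNNNGAA (GAS, the site of STAT factors, in 7.02% of all promoters), TTTCNNTTT (the core of the interferon-stimulated response element, 9.37%), GGGNNTTTC (NF-κB, 3.72%) and TTGCNNCAA (C/EBP, 1.74%), searched on both strands, had 0 matches in the 4 sequences. A match describes the letters only.

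C1r, the protease that C1q activates first, had a log2 ratio above 0, unlike C1q, except with spike-in scaling. C1ra had signals of 1622 in MSU and 1337 in control membranes on 1417009_at, which is 1.21-fold higher (log2 ratio 0.28, and -0.18 with spike-in scaling). At the brightest probe set of each gene, the log2 ratio of C1ra lay 0.75 to 0.80 above those of the 3 C1q genes. This difference is by definition the same under any scaling by 1 factor per array. The other C1qb probe sets, at -0.80 and -0.40, lay further from C1ra and nearer to it. A probe set that the annotation assigns to both C1ra and its near copy C1rb, and which is therefore no member, had 928 in MSU and 678 in control membranes. C1s1, the neighbour of C1ra on the chromosome and the gene of the partner protease C1s, had 2286 in MSU and 2096 in control membranes (log2 ratio 0.12, and -0.33 with spike-in scaling). C1s2, C1rb and C1rl had no probe set listed under their name alone in the annotation.

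C2, the substrate of C1s that supplies the protease of the classical convertase, showed no common direction. Its brightest probe set, 1441912_x_at, had signals of 377 in MSU and 358 in control membranes (log2 ratio 0.07). On 1416051_at the signals were 259 in MSU and 309 in control membranes (log2 ratio -0.25), and on 1457664_x_at they were 224 in MSU and 176 in control membranes (log2 ratio 0.35). The SD of these 3 log2 ratios, 0.30, exceeded the size of each but the last, and the ratio of the brightest was -0.00046 under median scaling and -0.38 under spike-in scaling. For C4, the other substrate of C1s, the probe set shared by C4a and C4b had 3467 in MSU and 3581 in control membranes, a log2 ratio of -0.05, and its signal cannot be divided between these near copies.

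Factor B had the highest ratio of the components. Cfb had a signal of 2432 in MSU membranes and 1062 in control membranes on 1417314_at, which is 2.29-fold higher (log2 ratio 1.20). Of the genes with a fold, 2.50% had a log2 ratio at or above it, as did 2.63% of the 874 genes with both signals at 1000 or more. Under spike-in scaling the log2 ratio was 0.74, below 2-fold. Cfb was read by this probe set alone, so no spread between probe sets can be given.

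Cfb and C2 are paralogous genes that lie beside each other in the major histocompatibility region, with 0 protein-coding genes between them. The log2 ratio of Cfb lay 1.12 above that of C2, whose 3 probe sets ran from -0.25 to 0.35. Whether such a difference would recur in other mice was not tested.

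Properdin was read by 2 probe sets with nearly equal ratios. Cfp had 1058 in MSU and 854 in control membranes on 1452279_at, which is 1.24-fold higher, and 113 in MSU and 89.3 in control membranes on 1447537_at, which is 1.27-fold higher. The second lies near the floor, at 1.53 times the floor in MSU and 1.38 times in control membranes. The SD of the 2 log2 ratios was 0.02, and with spike-in scaling they turned to -0.15 and -0.11. Of the genes with a fold, 19.5% had a log2 ratio at or above that of Cfp.

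Neutrophils carry properdin in their granules, and most of their markers had higher ratios than properdin. Of 9 measured neutrophil markers, 8 passed 2-fold upward and 0 downward. The calgranulins S100a8 and S100a9 had 8677 and 8737 in MSU membranes and 817 and 724 in control membranes. Lipocalin 2 (Lcn2) had 2359 in MSU and 391 in control membranes. Lactoferrin (Ltf), the 1 marker with a fold below 0, had 161 in MSU and 234 in control membranes. The summed signal of the 10 named markers was 23487 in MSU and 2904 in control membranes, with none at 0 and Camp below the floor in both pools. The part of neutrophils in the ratios of Cfp and Cfb was not tested.

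Fat also makes complement proteins, and fat and muscle can adhere to a dissected membrane. Adipocyte markers and most muscle markers were lower in the MSU pool. Of 6 measured adipocyte markers, 0 passed 2-fold upward and 5 downward, among them the fatty acid carrier Fabp4 with 1482 in MSU and 5879 in control membranes and the adipokines Adipoq, with 219 in MSU and 1610 in control membranes, and Retn, with 280 in MSU and 932 in control membranes. Their summed signal over 7 named markers was 2321 in MSU and 9514 in control membranes, with none at 0 and Pparg below the floor in both pools. Of 9 skeletal muscle markers, 2 had a log2 ratio above 0 and 7 below, with a median of -0.72, and with spike-in scaling 9 of 9 were below 0. At least 2-fold lower were 3 of them, named after their values were seen, and 0 were at least 2-fold higher. These were Myh2 (4.95-fold), Tnnt3 (4.99-fold) and Tnni2 (5.13-fold). Of the 3 brightest by mean signal, skeletal actin (Acta1) had 8398 in MSU and 7311 in control membranes. Creatine kinase (Ckm) had 4083 in MSU and 6709 in control membranes, and the myosin Myh1 had 3003 in MSU and 5232 in control membranes. By mean log2 signal Ttn, with 4266 in MSU and 3957 in control membranes, would take the place of Myh1. The summed signal of the 9 muscle markers was 24854 in MSU and 36606 in control membranes. The 10 fibroblast markers summed to 66794 in MSU and 59065 in control membranes, with a median log2 ratio of 0.10, 6 above 0 and 4 below (1 above and 9 below with spike-in scaling), and 0 of 10 past 2-fold in either direction. Their 3 brightest were collagens, with 15371 in MSU and 11909 in control membranes for Col3a1, 12750 in MSU and 11593 in control membranes for Col1a2, and 12669 in MSU and 9550 in control membranes for Col1a1. None of the muscle or fibroblast markers was at 0 or below the floor. The part of these tissues in the complement ratios was not tested.

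The wider complement system was below the floor in both pools for 18 genes and under 2-fold for most of the others. Of 50 further complement genes on a fixed list, 40 had a probe set listed under their name alone and 22 were measured. Of these 22, 2 passed 2-fold upward and 0 downward, against 3.7% and 4.29% of all 11155 genes measured. With spike-in scaling 1 passed upward and 3 downward. Among all genes 200 then passed upward and 1787 downward, with 11155 measured before that scaling. The median log2 ratio of the 21 with a fold was 0.12, against 0.07 for the 7 components and -0.05 for all genes. By log2 ratio, 13 of the 21 were above 0 and 8 below, and 5 above and 16 below with spike-in scaling. Of all genes with a fold, 45.0% were above 0 without that scaling.

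Both genes past 2-fold encode receptors. Itgam, the alpha chain of complement receptor 3 that binds cleaved C3b, had 1014 in MSU and 258 in control membranes and was 3.93-fold higher. C5ar1, the receptor of the leukocyte attractant C5a, had 1018 in MSU and 461 in control membranes and was 2.21-fold higher, and its other probe set had a log2 ratio of 1.22. With spike-in scaling the log2 ratio of Itgam was 1.52 and that of C5ar1 0.69, which is below 2-fold. Both receptors are carried by neutrophils, whose markers are given above, and by monocytes. Of 5 measured monocyte markers, 2 were at least 2-fold higher and none lower by that size, and the 4 with a fold were above 0 (1 above and 3 below with spike-in scaling). Those past 2-fold, named after their values were seen, were Chil3 with 337 in MSU and 99.2 in control membranes and F10 with 316 in MSU and 58.6, below the floor, in control membranes. The 3 brightest were Fn1, with 10057 in MSU and 8391 in control membranes, Plac8, with 2986 in MSU and 2385 in control membranes, and Ccr2, with 556 in MSU and 505 in control membranes. The monocyte markers summed to 14252 in MSU and 11438 in control membranes, with none at 0. Most of each sum was the signal of Fn1, whose source among the cells of the membrane was not tested. Mast cells also carry C5ar1, and of their 5 measured markers the 3 with a fold were below 0, with 0 past 2-fold, the 6 named markers summing to 434 in MSU and 729 in control membranes, with none at 0. The part of these cells in the receptor ratios was not tested. Itgb2, the beta chain that pairs with Itgam, had 2218 in MSU and 1243 in control membranes (1.78-fold higher). Calr, a chaperone that also serves C1q binding at the cell surface, had 5454 in MSU and 4674 in control membranes (log2 ratio 0.22, and -0.23 with spike-in scaling). In contrast, C3ar1, the receptor of C3a, singled out after its values were seen, had 790 in MSU and 882 in control membranes, and its 3 log2 ratios ran from -0.16 to 0.06.

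The lectin pathway, which starts from sugar-binding proteins instead of C1q, was measured for 4 of 9 genes. Fcna, the ficolin A gene that macrophages express, had 469 in MSU and 893 in control membranes and was 1.90-fold lower (log2 ratio -0.93, and -1.39, past 2-fold, with spike-in scaling). The scavenger collectin Colec12 had 574 in MSU and 533 in control membranes, with a log2 ratio of 0.11 that turned to -0.35 with spike-in scaling. The mannose-binding lectins Mbl1 and Mbl2, made in the liver, were below the floor in both pools. Of the terminal pathway, which builds the membrane attack complex, 1 of 6 named genes was measured. This was Hc, the gene of C5, with 108 in MSU and 72.7 in control membranes (1.49-fold higher), both near the floor. C6, the next brightest, was below the floor with 55.4 in MSU and 51.4 in control membranes. Cfd (adipsin), the alternative pathway protease that cleaves factor B, had no probe set listed under its name alone in the annotation.

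Regulators were measured for 4 of 8 named genes in the fluid phase and 4 of 7 on membranes, and 0 passed 2-fold in either direction, although Clu and Cfi passed it downward with spike-in scaling. Serping1, the C1 inhibitor that stops C1r and C1s, had 5644 in MSU and 4286 in control membranes and was 1.32-fold higher, a log2 ratio of 0.40 that was -0.06 with spike-in scaling. Clusterin (Clu), which holds back the terminal complex, had 490 in MSU and 854 in control membranes and was 1.74-fold lower, and its 4 probe sets had log2 ratios of -0.80 to -0.50. With spike-in scaling its log2 ratio was -1.26. Cfi, the protease that degrades C3b, was singled out after its values were seen. It had 60.3 in MSU, below the floor, and 125 in control membranes, which is at least 1.69-fold lower by a bound against the floor. On membranes, Cr1l (Crry), the rodent inhibitor of the C3 convertases, had 525 in MSU and 449 in control membranes, with a log2 ratio of 0.22 that turned to -0.23 with spike-in scaling. Cd59a, which blocks the terminal complex, had 252 in MSU and 322 in control membranes (1.28-fold lower).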

How the data were processed

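The deposited values were linear signal intensities, 1 per probe set and array, which the authors computed with Affymetrix software (GCOS in the methods, MAS5 in the submitters' processing notes; no version is stated in the sources at hand). Over all 45101 probe sets, the mean without the highest and lowest 2% was 150.0 on both arrays, as 1 scaling factor per array gives. RNA was pooled before labeling, so variation between mice was not measured, and having 1 array per condition limits the precision. The methods and the sample records differ in the air volume and the day of injection, and those of the records are given here.

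The platform's annotation gave the gene names. Outdated symbols were replaced by Entrez number from the RefSeq table of GRCm38.p6, which was also used for names, neighbours and promoter sequences. Probe sets with several genes were used for no gene. The floor of each array was the signal at the rank equal to the number of probe sets the study counted as detected there, and detection calls were not used. A signal above the floor on 1 array was given as a bound against the other floor. A gene is called measured where it has either. Folds are MSU over control, and no p-value was computed.

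Named genes were each component with all its probe sets, each further complement gene past 2-fold, the 2 brightest of each role group and the 3 brightest of each marker list set beside a component. Others are marked in the text, except that Ltf, Alb, Mbl1, Mbl2 and list members below the floor were also named after their values were seen. Of the mast cell, T cell, B cell and hepatocyte lists only counts or sums are given, apart from Alb. The components and all lists were chosen with earlier results of these data known. Alternatives were 3 scalings (median, quantile, spike-in), a floor at rank 15000, no floor, the floor as a pseudocount, the median over probe sets, no _x_at or _s_at probe sets, and 3-fold. The gene step was tested on simulated data. Protein sequences, planned for comparison, were not analysed here. Python 3.11.15, NumPy 2.4.6 and pandas 2.3.3 were used.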

Additional observations from a re-analysis of the deposited data

How the results depend on the processing

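No paired analysis was possible because each condition had 1 array, and for the same reason no replicate could be left out. The count of components at least 2-fold higher was 1 in the reported setting and 0 with spike-in scaling or a size of 3-fold, and that at least 2-fold lower was 0 under every alternative. The median log2 ratio of the components was 0.07, -0.38 with spike-in scaling and between -0.25 and 0.11 under the others. Of the 50 further complement genes, 40 had a probe set listed and 22 were measured. At least 2-fold higher were 2, 1 with spike-in scaling (Itgam) and 4 with no floor, where C8a and Cpn1, below the floor in both pools, were added. At least 2-fold lower were 0, 1 with median scaling (Fcna), 3 with spike-in scaling (Fcna, Clu and Cfi) and 2 with no floor (Colec11 and Cfi). Among all measured genes 3.7% passed upward and 4.29% downward in the reported setting. With spike-in scaling 200 of all genes were higher and 1787 lower by that size. Shares over all genes were not taken for median scaling or no floor. Under the 8 alternatives run on single genes, the log2 ratios of the 3 C1q genes were below 0. They ran from -0.96 to -0.49 for C1qa, -0.92 to -0.45 for C1qb and -0.97 to -0.50 for C1qc. The log2 ratio of Cfb was above 0 (0.74 to 1.20). C1qa, C1qc, C1ra and Cfb had 1 probe set each, well above the floor and without an _x_at or _s_at ending. Their values were fixed under the other floor rank, no floor, the median over probe sets and removal of _x_at or _s_at probe sets. Only the 3 scalings and the pseudocount could move them. C1ra and Cfp changed sign in 1 of 8 (spike-in scaling) and C2 in 3 of 8 (median scaling, spike-in scaling and no _x_at or _s_at probe sets). Without those probe sets C1qb had a log2 ratio of -0.80. The spread between probe sets of a gene, a pooled SD of 0.33 on the log2 scale, holds no variation between mice, so that with 1 array per condition no ratio of any size can be set against replicate error.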
